A study of Homo sapiens with 12 samples.

Results

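The translation initiation factors (eIF) and elongation factors (eEF) are the proteins that load a ribosome onto an mRNA, place it on the start codon and carry it along the coding sequence. Their genes were taken by symbol, as every symbol that begins with EIF and a digit from 1 to 6 or with EEF and 1 or 2. The eIF2α kinase genes, *EIF4EBP1*, the *EEF1AKMT* genes, *EEF2K*, symbols with a hyphen and symbols ending in P and digits were left out. Of 79 matching symbols, 22 were left out in this way, and *EIF4EBP2* and *EIF4EBP3* fell to the last of these criteria although they are not pseudogenes. This left 57 of the 43236 gene symbols of each library. The criteria use symbols alone. By complex, 5 belong to eIF1 and eIF1A, 4 to eIF2, 5 to eIF2B, 14 to eIF3, 13 to the eIF4 family, 6 to eIF5 and eIF6 and 7 to the elongation factors. *EIF2A* and *EIF2D*, whose products bind initiator tRNA outside the eIF2 trimer, and *EEF2KMT*, which encodes an eEF2 methyltransferase, complete the list.

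The mRNA of MNNG/HOS cells (HOS-MNNG in the sample labels), a human osteosarcoma line derived by chemical transformation of HOS cells, was sequenced after 6 h and 24 h. Cells received the solvent DMSO or 300 nM NXP800, an oral small molecule that the study describes as an activator of the kinase GCN2, and each of the 4 groups holds 3 libraries. All groups come from this 1 line, the dose is given by the study's methods, and nothing in the labels says whether the replicates were separate cultures, so p-values measure the spread between these libraries. Each library held between 30810614 and 31947656 counts on genes. The mesenchymal marker *VIM* lay between 3340 and 5890 CPM (counts scaled to library size) and the osteoblast-lineage factor *RUNX2* between 20.7 and 42.5 CPM, whereas *COL1A2* and *ALPL*, which osteoblasts express, were at or near 0 (at most 0.378 CPM). Of the markers of other cell types, *EPCAM* lay between 5.59 and 10.2 CPM, and the leukocyte, endothelial and other epithelial markers stayed under 1 CPM.

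During initiation, eIF2 carries the initiator tRNA to the small ribosomal subunit as a ternary complex with GTP, while eIF1, eIF1A and eIF3 hold the subunit in a state that scans for a start codon. eIF4F, made of the cap-binding protein eIF4E, the scaffold eIF4G and the helicase eIF4A, brings the mRNA. eIF5 triggers GTP hydrolysis by eIF2 at the start codon, and eIF2B then recharges eIF2 with GTP. Phosphorylation of the α subunit of eIF2 by stress kinases such as GCN2 turns eIF2 into an inhibitor of eIF2B, lowers general initiation and favours the translation of a few mRNAs such as that of *ATF4*. These counts measure mRNA and carry no information on phosphorylation or on protein.

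Of the 57 genes, 54 passed the filter on low counts (filterByExpr) and were tested with edgeR among 15979 genes, with Benjamini-Hochberg adjustment over all of them and calls at an adjusted p below 0.05. At 6 h, 11 translation factors rose and 9 fell with NXP800, together 37.0% of those tested, where 52.8% of all tested genes were called, 25% upwards and 27.8% downwards. At 24 h, 13 rose and 16 fell, together 53.7%, where 56% of all tested genes were called, 27.5% upwards and 28.6% downwards. The share called thus lay below the background at 6 h and near it at 24 h. Changes were small. The median absolute log2 fold change of the translation factors was 0.16 at 6 h and 0.23 at 24 h, against 0.34 and 0.38 over all tested genes. Only *EIF1* at 6 h went beyond 2-fold, while 11.2% of all tested genes did so at 6 h and 14% at 24 h. The signed median lay at -0.008 and 0.007, and that of all genes at -0.046 and -0.003.

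In every call, all 3 NXP800 libraries lay outside the range of the 3 DMSO libraries of the same time point. Without regard to calls, the groups did not overlap for 15 factors above and 12 below DMSO at 6 h, and for 15 above and 17 below at 24 h. Over all tested genes 62% were without overlap at 6 h (29.3% above and 32.7% below) and 59.1% at 24 h (29% and 30.1%). All levels are relative to the other transcripts of a library, so less RNA per cell and fewer cells cannot be told apart here.

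Of the calls, 16 were shared by the 2 time points in the same direction, which is 80.0% of the calls at 6 h and 55.2% of those at 24 h. Over all tested genes, 5598 calls were shared in the same direction, 66.4% of those at 6 h and 62.5% of those at 24 h, and 338 genes were called in opposite directions. Of the factors, 9 rose at both (*EIF1*, *EIF1B*, *EIF2S1*, *EIF2S2*, *EIF3A*, *EIF3D*, *EIF3M*, *EIF5* and *EIF6*) and 7 fell at both (*EEF1D*, *EIF2B1*, *EIF2S3*, *EIF3B*, *EIF4A3*, *EIF4G1* and *EIF4H*). A further 4 were called only at 6 h and 13 only at 24 h, and 21 were called at neither time point. With edgeR 0 were called in opposite directions (0 also at an unadjusted p under 0.05 and 0 with DESeq2). These counts come from a fit without the replicate number as a block. With that block, *EEF2*, *EIF3K* and *EIF5B* of the 21 were called at 6 h. At 24 h *EEF1A1*, *EIF2A*, *EIF2D*, *EIF3I*, *EIF4E3* and *EIF5A2* of the 21 were called. *EIF3C* (up) and *EIF5A* (down) were then called at both times. Without the block, each of eIF2, eIF2B and eIF3 held genes that rose beside genes that fell at both time points. In the eIF4 family the calls at both times were all falls. Over all tested genes 25% rose and 27.8% fell at 6 h, and 27.5% rose and 28.6% fell at 24 h. Calls in both directions are thus no trait particular to these complexes. The fall in eIF3 at 6 h, that of *EIF3B*, had -0.010 (adjusted p = 0.852) with offsets for GC and length added to the block.

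**Figure D1:**
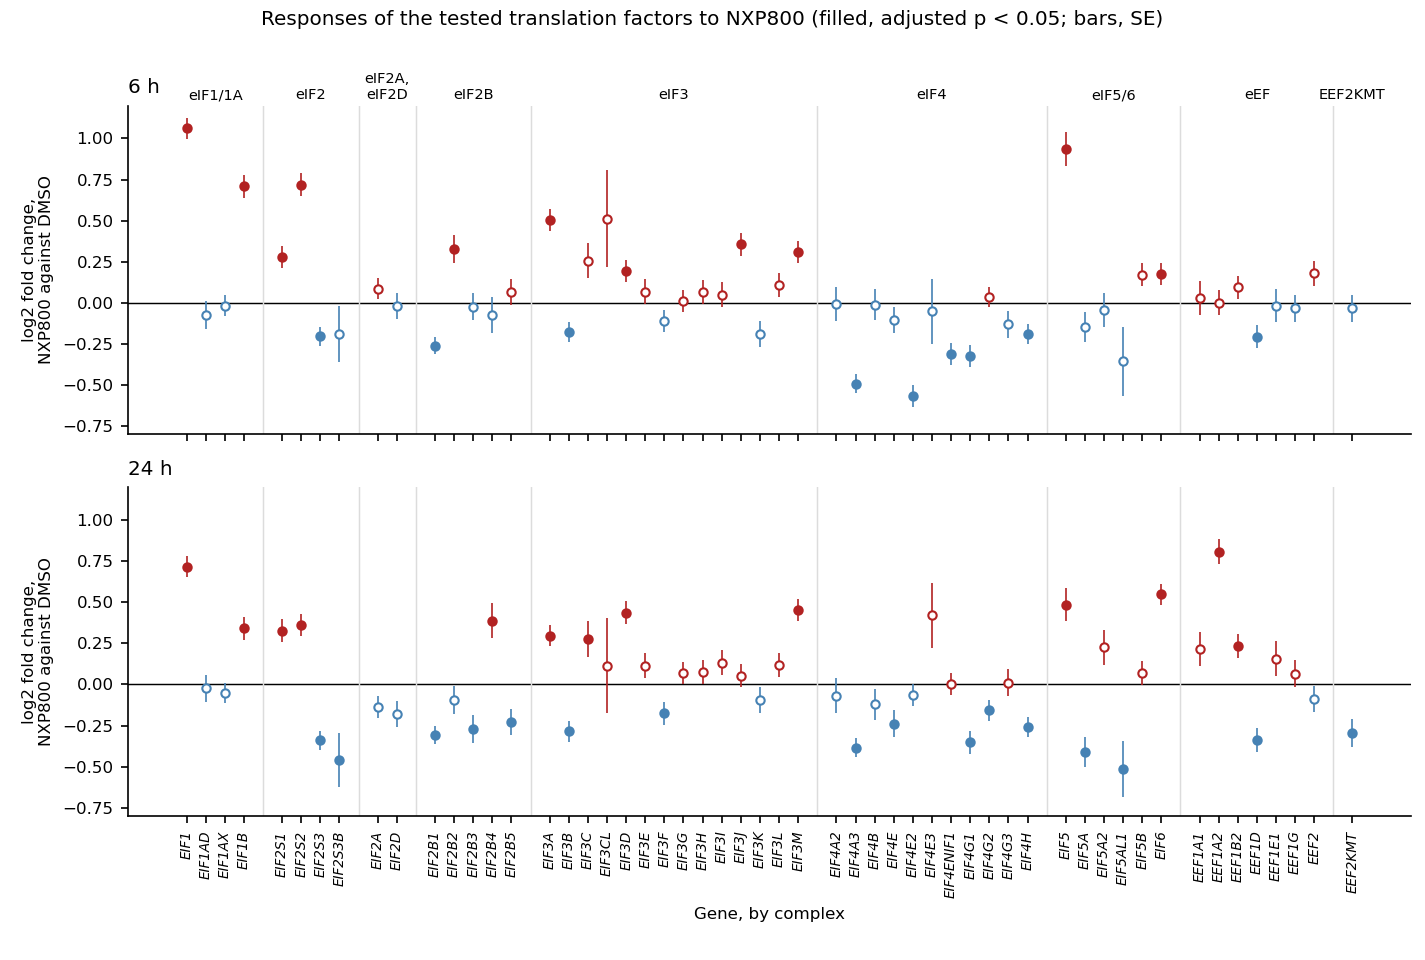
log2 fold change of NXP800 against DMSO for the 54 tested genes, grouped by complex, at 6 h (upper panel) and 24 h (lower panel). Points are the edgeR estimates and bars their standard errors, red for values above 0 and blue for values below, filled where the adjusted p was under 0.05. *EIF1* is highest at 6 h and *EEF1A2* at 24 h, and the filled points of the eIF4 family all lie below 0.

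*EIF1* had the largest rise of the list at 6 h. *EIF1*, whose product keeps the scanning ribosome from starting at a wrong codon, had 368, 365 and 346 CPM with DMSO and 787, 743 and 723 CPM with NXP800 at 6 h. The rise was log2 fold change 1.06, SE 0.064, adjusted p = 2.2e-09. At 24 h the counts were 446, 412 and 419 CPM with DMSO and 702, 731 and 665 CPM with NXP800, with log2 fold change 0.72, SE 0.064, adjusted p = 1.11e-07. In both cases the lowest treated library stood well above the highest control. Its paralogue *EIF1B* had 44.04, 41.6 and 42.2 CPM with DMSO and 71.8, 67.4 and 69.7 CPM with NXP800 at 6 h (log2 fold change 0.71, SE 0.071, adjusted p = 5.28e-07) and 50.7, 48.4 and 47.9 CPM with DMSO and 66.5, 64.6 and 55.2 CPM with NXP800 at 24 h (log2 fold change 0.34, SE 0.071, adjusted p = 0.000642). Per kilobase of transcript, by the length of GENCODE's canonical transcript, *EIF1* lay at 154 ± 5.06 CPM (mean ± SD, n = 3, as for every level per kilobase) in the DMSO libraries of 6 h and *EIF1B* at 43.2 ± 1.30 CPM. The paralogue was the lower of the pair in every group.

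*EIF1AX*, which encodes eIF1A, a partner of eIF1 on the scanning subunit, did not pass the test at either time (log2 fold change -0.016, SE 0.062, adjusted p = 0.845 at 6 h and log2 fold change -0.053, SE 0.063, adjusted p = 0.49 at 24 h). In a fit blocked on replicate number that also corrected for transcript length and GC content by offsets, *EIF1AX* was called down at both times (-0.18, adjusted p = 0.00108, and -0.12, adjusted p = 0.0208). *EIF1AD*, a domain relative with a role in maturation of the small subunit, was not called either (-0.075 and -0.024). The Y-linked *EIF1AY* was not among the tested genes.

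*EIF5* encodes the protein that activates GTP hydrolysis by eIF2 once the start codon is found. Its level was 499, 471 and 471 CPM with DMSO and 951, 953 and 854 CPM with NXP800 at 6 h. All 3 treated libraries were far above the controls (log2 fold change 0.94, SE 0.10, adjusted p = 1.37e-06). At 24 h it stood at 460.4, 459.5 and 392 CPM with DMSO and 682, 658 and 496 CPM with NXP800, where treated replicate 3 came close to the controls without reaching them (log2 fold change 0.48, SE 0.10, adjusted p = 0.000708). *EIF5B*, the GTPase that joins the large subunit, was not called at 6 h (log2 fold change 0.17, SE 0.072, adjusted p = 0.0547) although its treated libraries lay above the controls. With the replicate number as a block it was called (adjusted p = 0.00852), but not once GC and length offsets were added to the block (0.052, adjusted p = 0.316). At 24 h it had log2 fold change 0.071, SE 0.072, adjusted p = 0.419.

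The 3 subunits of the eIF2 trimer went in different directions. *EIF2S1* encodes eIF2α, the subunit that carries the regulatory serine, and is a different gene from *EIF2A*. At 6 h it had 439, 407 and 403 CPM with DMSO and 527, 495 and 494 CPM with NXP800 (log2 fold change 0.28, SE 0.070, adjusted p = 0.00305), and at 24 h 325, 302 and 329 CPM with DMSO and 438, 387 and 374 CPM with NXP800 (log2 fold change 0.33, SE 0.070, adjusted p = 0.000833). Both values passed the test. With GC and length offsets added to the replicate block, the value at 6 h was 0.15 (adjusted p = 0.0065). *EIF2S2*, the β subunit, had 456, 449 and 406 CPM with DMSO and 733, 730 and 697 CPM with NXP800 at 6 h (log2 fold change 0.72, SE 0.069, adjusted p = 3.35e-07). At 24 h both groups were lower, with 304, 258 and 289 CPM with DMSO and 367, 366 and 361 CPM with NXP800 (log2 fold change 0.36, SE 0.069, adjusted p = 0.000317), and the treated libraries still lay above the controls.

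*EIF2S3*, the GTP-binding γ subunit, fell. Its counts were 282, 275 and 266 CPM with DMSO and 235, 234 and 245 CPM with NXP800 at 6 h (log2 fold change -0.20, SE 0.057, adjusted p = 0.0067) and 213, 222 and 207 CPM with DMSO and 167, 178 and 162 CPM with NXP800 at 24 h (log2 fold change -0.34, SE 0.058, adjusted p = 0.000104), with no overlap at either time. Per kilobase, the mean of the γ subunit went from 61.9 ± 2.19 CPM with DMSO to 48.9 ± 2.21 CPM with NXP800 at 24 h, while that of the β subunit went from 111 ± 9.20 CPM to 143 ± 1.22 CPM and that of the α subunit from 76.8 ± 3.51 CPM to 96.2 ± 8.05 CPM. The copy *EIF2S3B* had few counts (92 to 184 per library) and is near-identical to *EIF2S3*, so that reads of the 2 genes may be split between them. It was called at 24 h (log2 fold change -0.46, SE 0.16, adjusted p = 0.0251). That call was lost without DMSO 24 h replicate 2 or without NXP800 24 h replicate 1 or 3 (log2 fold change -0.46 to -0.33, adjusted p 0.0502 to 0.133) and with scaling by library size only (adjusted p = 0.0765).

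**Figure D2:**
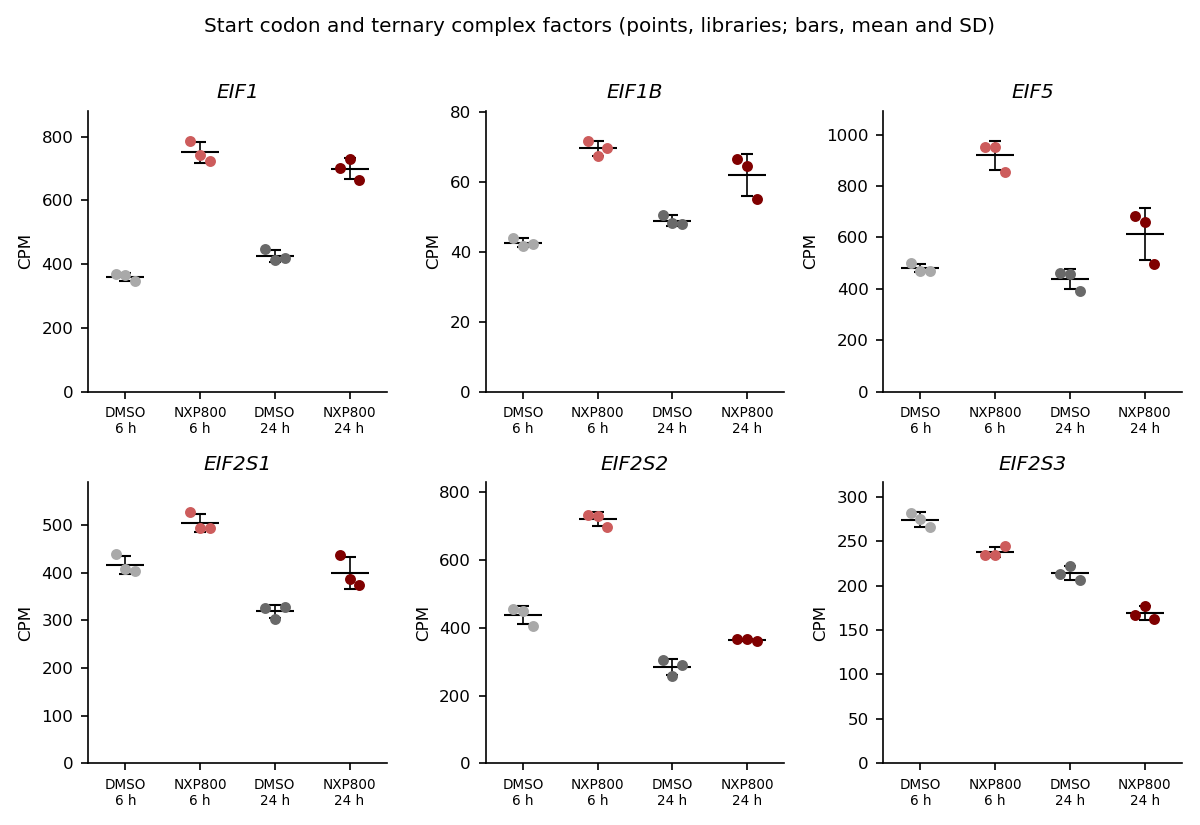
Scaled counts (CPM, linear axes from 0) of 6 genes of start codon selection and of the eIF2 trimer in the 4 groups. Points are the 3 libraries of a group, and horizontal and vertical bars are the mean and the SD. Treated libraries lie above their DMSO controls for *EIF1*, *EIF1B*, *EIF5*, *EIF2S1* and *EIF2S2*, and below them for *EIF2S3*.

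*EIF2A* and *EIF2D*, whose products can deliver initiator tRNA without eIF2, were not called at 6 h (0.087 and -0.018) or at 24 h (log2 fold change -0.14, SE 0.065, adjusted p = 0.0845 for *EIF2A*, and log2 fold change -0.18, SE 0.079, adjusted p = 0.0625 for *EIF2D*). With the replicate block both fell at 24 h (adjusted p = 0.0167 and 0.01).

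eIF2B, the exchange factor that phosphorylated eIF2 inhibits, has 5 subunits, of which α, β and δ form the regulatory part and γ and ε the catalytic part. *EIF2B1* (α) was the subunit that fell at both times. It had 81.5, 81.9 and 78.3 CPM with DMSO and 69.5, 65.0 and 67.5 CPM with NXP800 at 6 h (log2 fold change -0.26, SE 0.054, adjusted p = 0.000775) and 75.3, 76.4 and 74.4 CPM with DMSO and 60.4, 60.3 and 62.3 CPM with NXP800 at 24 h (log2 fold change -0.31, SE 0.054, adjusted p = 0.000165). The ranges of the groups stayed apart. *EIF2B2* (β) rose at 6 h, with 78.4, 75.3 and 70.0 CPM with DMSO and 103, 89.2 and 88.9 CPM with NXP800 (log2 fold change 0.33, SE 0.085, adjusted p = 0.00405), and was not called at 24 h (log2 fold change -0.092, SE 0.086, adjusted p = 0.379), when the groups overlapped. *EIF2B4* (δ) did the opposite, with log2 fold change -0.073, SE 0.11, adjusted p = 0.593 at 6 h and 30.0, 31.8 and 35.2 CPM with DMSO and 39.5, 36.4 and 51.1 CPM with NXP800 at 24 h (log2 fold change 0.39, SE 0.10, adjusted p = 0.00503). Treated replicate 3 stood above the others, and without it the value at 24 h was 0.23 (adjusted p = 0.0324).

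Both catalytic subunits of eIF2B were lower at 24 h. *EIF2B3* (γ) had 50.9, 56.9 and 60.8 CPM with DMSO and 46.0, 44.3 and 49.7 CPM with NXP800 (log2 fold change -0.27, SE 0.085, adjusted p = 0.0135) and *EIF2B5* (ε) had 101 ± 3.28 CPM (SD, n = 3) with DMSO and 86.4 ± 1.41 CPM (SD, n = 3) with NXP800 (log2 fold change -0.23, SE 0.079, adjusted p = 0.0226), without overlap of the groups. At 6 h neither was called (-0.022 and 0.064). Both calls at 24 h were lost with scaling by library size only (adjusted p = 0.0729 and 0.158). The call of *EIF2B3* was also lost without DMSO 24 h replicate 3 or NXP800 24 h replicate 2 (log2 fold change -0.21 and -0.20), and that of *EIF2B5* without DMSO 24 h replicate 3 or any 1 of the 3 NXP800 24 h libraries (-0.22 to -0.20, adjusted p 0.0522 to 0.0743). The 5 subunits had a median of -0.022 at 6 h and of -0.23 at 24 h (log2).

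eIF3 is the largest initiation factor and bridges the small subunit, the ternary complex and eIF4G. Of its 14 genes, all tested, 4 rose and 1 fell at 6 h, and 4 rose and 2 fell at 24 h. The share called was 35.7% at 6 h and 42.9% at 24 h, against 52.8% and 56% of all tested genes. The medians were 0.089 and 0.11. *EIF3A*, the core subunit around which the complex assembles, rose most at 6 h, with 596, 547 and 557 CPM with DMSO and 806, 804 and 801 CPM with NXP800 (log2 fold change 0.50, SE 0.065, adjusted p = 7.4e-06). At 24 h it had 496, 448 and 512 CPM with DMSO and 595, 608 and 585 CPM with NXP800 (log2 fold change 0.30, SE 0.065, adjusted p = 0.00097). The treated libraries lay above the controls at both times. *EIF3M*, another subunit of the same structural class, had 188, 191 and 184 CPM with DMSO and 241, 229 and 227 CPM with NXP800 at 6 h (log2 fold change 0.31, SE 0.068, adjusted p = 0.00124) and 173, 146 and 150.5 CPM with DMSO and 228, 209.8 and 206 CPM with NXP800 at 24 h (log2 fold change 0.45, SE 0.068, adjusted p = 3.22e-05), again without overlap. With GC and length offsets added to the replicate block, the value of *EIF3M* at 6 h was 0.18 (adjusted p = 0.00131).

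*EIF3D*, the subunit that can bind the cap of selected mRNAs, had 431, 396 and 420.1 CPM with DMSO and 603, 549 and 535 CPM with NXP800 at 24 h (log2 fold change 0.44, SE 0.069, adjusted p = 5.12e-05). At 6 h it was also called, by a smaller margin (402 ± 25.1 CPM (SD, n = 3) with DMSO and 460.2 ± 18.4 CPM (SD, n = 3) with NXP800; log2 fold change 0.20, SE 0.069, adjusted p = 0.0255). The call at 6 h was lost without DMSO 6 h replicate 1 or 3 or NXP800 6 h replicate 1 or 2 (log2 fold change 0.15 to 0.20, adjusted p 0.0519 to 0.119). *EIF3J*, a loosely bound subunit that acts at the mRNA entry channel, rose only at 6 h by these calls, with 248, 242 and 218 CPM with DMSO and 329.8, 294 and 282 CPM with NXP800 (log2 fold change 0.36, SE 0.070, adjusted p = 0.000472). At 24 h its libraries overlapped (196, 179.6 and 194 CPM with DMSO and 192, 201 and 198 CPM with NXP800; log2 fold change 0.052, SE 0.070, adjusted p = 0.554). The same block with offsets gave 0.23 for *EIF3J* at 6 h (adjusted p = 0.000166).

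*EIF3B*, the second core scaffold, moved against *EIF3A*. It had 468 ± 14.5 CPM (SD, n = 3) with DMSO and 414 ± 10.8 CPM (SD, n = 3) with NXP800 at 6 h (log2 fold change -0.18, SE 0.062, adjusted p = 0.0248) and 502 ± 24.2 CPM (SD, n = 3) with DMSO and 412 ± 21.8 CPM (SD, n = 3) with NXP800 at 24 h (log2 fold change -0.29, SE 0.062, adjusted p = 0.00101). Its fall at 6 h was lost without DMSO 6 h replicate 1 or 2 or NXP800 6 h replicate 2 or 3 (-0.18 to -0.16, adjusted p 0.0606 to 0.0903) and with no filter on low counts (adjusted p = 0.0665). With offsets for GC and length added to the replicate block, the value at 6 h was -0.010 (adjusted p = 0.852) and that at 24 h -0.17 (adjusted p = 0.00157). *EIF3F* was called down at 24 h (log2 fold change -0.18, SE 0.068, adjusted p = 0.0375), a call that was lost without any 1 of the 3 DMSO 24 h libraries or without NXP800 24 h replicate 2 or 3 (-0.18 to -0.089, adjusted p 0.0649 to 0.273) and under DESeq2 (adjusted p = 0.0677).

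*EIF3C*, another core subunit, shares nearly all of its sequence with the neighbouring copy *EIF3CL* on chromosome 16. Its 809 to 1419 counts per library, against 15 to 32 for the copy, are therefore uncertain. *EIF3C* had 28.9, 27.2 and 28.8 CPM with DMSO and 42.0, 31.4 and 29.4 CPM with NXP800 at 24 h (log2 fold change 0.28, SE 0.11, adjusted p = 0.0422). Treated replicate 1 stood apart from the others, and without it the value was 0.10 (adjusted p = 0.333). The call was lost on leaving out any 1 of 8 of the 12 libraries (adjusted p 0.05 to 0.333), namely DMSO 6 h replicate 2, all NXP800 6 h libraries, all DMSO 24 h libraries and that replicate. At 6 h it was not called (log2 fold change 0.26, SE 0.11, adjusted p = 0.0559), but it was with the replicate block (adjusted p = 0.00768) and with DESeq2 (adjusted p = 0.0489).

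The other eIF3 genes (*EIF3E*, *EIF3G*, *EIF3H*, *EIF3I*, *EIF3K* and *EIF3L*) were called at neither time, with log2 fold changes from -0.19 (*EIF3K*) to 0.11 (*EIF3L*) at 6 h and from -0.094 (*EIF3K*) to 0.13 (*EIF3I*) at 24 h. *EIF3K* at 6 h and *EIF3I* at 24 h were called with the replicate block (adjusted p = 0.00309 and 0.0344), and with the offsets added *EIF3G* (0.17 at each time, adjusted p = 0.0011 and 0.000991) and *EIF3L* (0.13 and 0.12, adjusted p = 0.0183 and 0.0278) were called up at both times. With scaling by library size only, *EIF3E*, *EIF3G*, *EIF3H*, *EIF3I* and *EIF3L* were called up at 24 h (0.16 to 0.22). *EIF3CL* had 0.51 at 6 h with a standard error of 0.30.

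Of the 13 genes of the eIF4 family 11 were tested, and 5 fell and 0 rose at 6 h and again at 24 h with edgeR. By share, 45.5% fell at each time, against 27.8% of all tested genes at 6 h and 28.6% at 24 h. Of all tested genes 25% rose at 6 h and 27.5% at 24 h. The falls of *EIF4E* and *EIF4G2* at 24 h were lost with scaling by library size only (adjusted p = 0.101 and 0.282). At an unadjusted p under 0.05 and with DESeq2 the rises were also 0 at both times, and with the replicate block 1 (*EIF4E3*) at 24 h. The medians were -0.13 and -0.12. *EIF4A1*, the main eIF4A helicase of eIF4F in most tissues, was listed at 0 counts in all 12 libraries, which allows at most 0.0939 to 0.0974 CPM as counted (3 counts per library, counting error only). RefSeq places it on chromosome 17 at 7572825 to 7579006 (GRCh38.p14), wholly inside the readthrough transcript *SENP3-EIF4A1* (7561992 to 7579006), which had 6 to 29 counts per library. Whether reads of *EIF4A1* were set aside as ambiguous was not tested, and its level is not read from these counts. The oocyte form *EIF4E1B* was also at 0 in all libraries.

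*EIF4A2*, the paralogous helicase, did not pass the test. It had 286, 374 and 317 CPM with DMSO and 311, 336 and 325 CPM with NXP800 at 6 h (log2 fold change -0.007, SE 0.10, adjusted p = 0.959), where the DMSO libraries alone spanned more than the treated ones, and log2 fold change -0.069, SE 0.11, adjusted p = 0.598 at 24 h. *EIF4A3*, a relative that sits in the exon junction complex on spliced mRNA and is no part of eIF4F, fell at both times. It had 189, 204 and 196 CPM with DMSO and 137, 139.9 and 142 CPM with NXP800 at 6 h (log2 fold change -0.49, SE 0.059, adjusted p = 3.58e-06) and 225, 216 and 209 CPM with DMSO and 170.5, 157 and 171 CPM with NXP800 at 24 h (log2 fold change -0.38, SE 0.058, adjusted p = 3.5e-05), and the groups were clearly apart. *EIF4H*, which stimulates eIF4A, had 413, 388 and 419.5 CPM with DMSO and 366, 327 and 329 CPM with NXP800 at 24 h (log2 fold change -0.26, SE 0.062, adjusted p = 0.00208; -0.17 with scaling by library size only, adjusted p = 0.0106). Its fall at 6 h (log2 fold change -0.19, SE 0.062, adjusted p = 0.0174) was lost without DMSO 6 h replicate 1 or 2 or NXP800 6 h replicate 1 (-0.18 to -0.17, adjusted p 0.0501 to 0.0738). *EIF4B*, the other stimulator, was not called (-0.010 at 6 h and -0.12 at 24 h).

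Among the cap-binding proteins, the fall at 6 h was that of *EIF4E2*, which binds the cap without recruiting eIF4G and represses selected mRNAs. It had 127, 120.1 and 111 CPM with DMSO and 82.4, 77.5 and 82.3 CPM with NXP800 at 6 h (log2 fold change -0.56, SE 0.066, adjusted p = 2.75e-06). At 24 h its libraries overlapped those of DMSO, with 120.4, 114 and 124 CPM with DMSO and 119, 107 and 117 CPM with NXP800 (log2 fold change -0.063, SE 0.065, adjusted p = 0.429). *EIF4E*, the cap-binding subunit of eIF4F, had log2 fold change -0.11, SE 0.079, adjusted p = 0.279 at 6 h and was called at 24 h, with 76.0, 75.0 and 75.0 CPM with DMSO and 71.1, 63.4 and 57.2 CPM with NXP800 (log2 fold change -0.24, SE 0.081, adjusted p = 0.0196). The call was lost without NXP800 24 h replicate 2 or 3 (-0.21 and -0.16, adjusted p 0.0694 and 0.101) and with scaling by library size only (adjusted p = 0.101). Per kilobase in the DMSO libraries of 6 h, *EIF4E2* lay at 124 ± 8.07 CPM, *EIF4E* at 48.2 ± 4.08 CPM and *EIF4E3* at 0.439 ± 0.108 CPM. Before division by length, *EIF4E2* and *EIF4E* had means of 119 and 117 CPM. Their gap per kilobase thus rests on the canonical lengths (967 and 2427 bases), which were not measured in these cells. *EIF4E3* had log2 fold change -0.052, SE 0.20, adjusted p = 0.842 at 6 h and log2 fold change 0.42, SE 0.20, adjusted p = 0.0828 at 24 h, and at 24 h it was called with the replicate block (adjusted p = 0.00536). *EIF4ENIF1*, whose product carries eIF4E into the nucleus, fell at 6 h with 30.4, 29.2 and 30.4 CPM with DMSO and 23.3, 23.8 and 25.5 CPM with NXP800 (log2 fold change -0.31, SE 0.066, adjusted p = 0.000924). It was not called at 24 h (log2 fold change 0.004, SE 0.067, adjusted p = 0.966), where the libraries overlapped.

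*EIF4G1*, the scaffold of eIF4F, fell at both times. Its counts were 1019, 932 and 988 CPM with DMSO and 771, 782 and 796 CPM with NXP800 at 6 h (log2 fold change -0.32, SE 0.068, adjusted p = 0.000863) and 1127, 1082 and 1252 CPM with DMSO and 914, 876 and 919 CPM with NXP800 at 24 h (log2 fold change -0.35, SE 0.068, adjusted p = 0.00035). The highest treated library was below the lowest control at each time. With GC and length offsets added to the replicate block, the value at 6 h was -0.17 (adjusted p = 0.00428). *EIF4G2*, a scaffold that lacks the eIF4E site and serves cap-independent and reinitiation events, was not called at 6 h (log2 fold change 0.037, SE 0.062, adjusted p = 0.645) and had 892, 859 and 889.8 CPM with DMSO and 841, 780.2 and 747 CPM with NXP800 at 24 h (log2 fold change -0.16, SE 0.062, adjusted p = 0.0402). That call was lost on leaving out any 1 of 8 libraries, namely DMSO 6 h replicate 1, all NXP800 6 h libraries, DMSO 24 h replicates 1 and 3 and NXP800 24 h replicates 2 and 3 (-0.16 to -0.12, adjusted p 0.0527 to 0.163), with no filter on low counts (adjusted p = 0.177) and with DESeq2's size factors (adjusted p = 0.0624). *EIF4G3*, the other eIF4G paralogue, had log2 fold change -0.13, SE 0.083, adjusted p = 0.205 at 6 h and log2 fold change 0.010, SE 0.083, adjusted p = 0.925 at 24 h. Per kilobase in the DMSO libraries of 6 h, *EIF4G2* lay at 222 ± 3.89 CPM, *EIF4G1* at 181 ± 8.21 CPM and *EIF4G3* at 11.7 ± 0.911 CPM, so *EIF4G3* was the minor form.

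**Figure D3:**
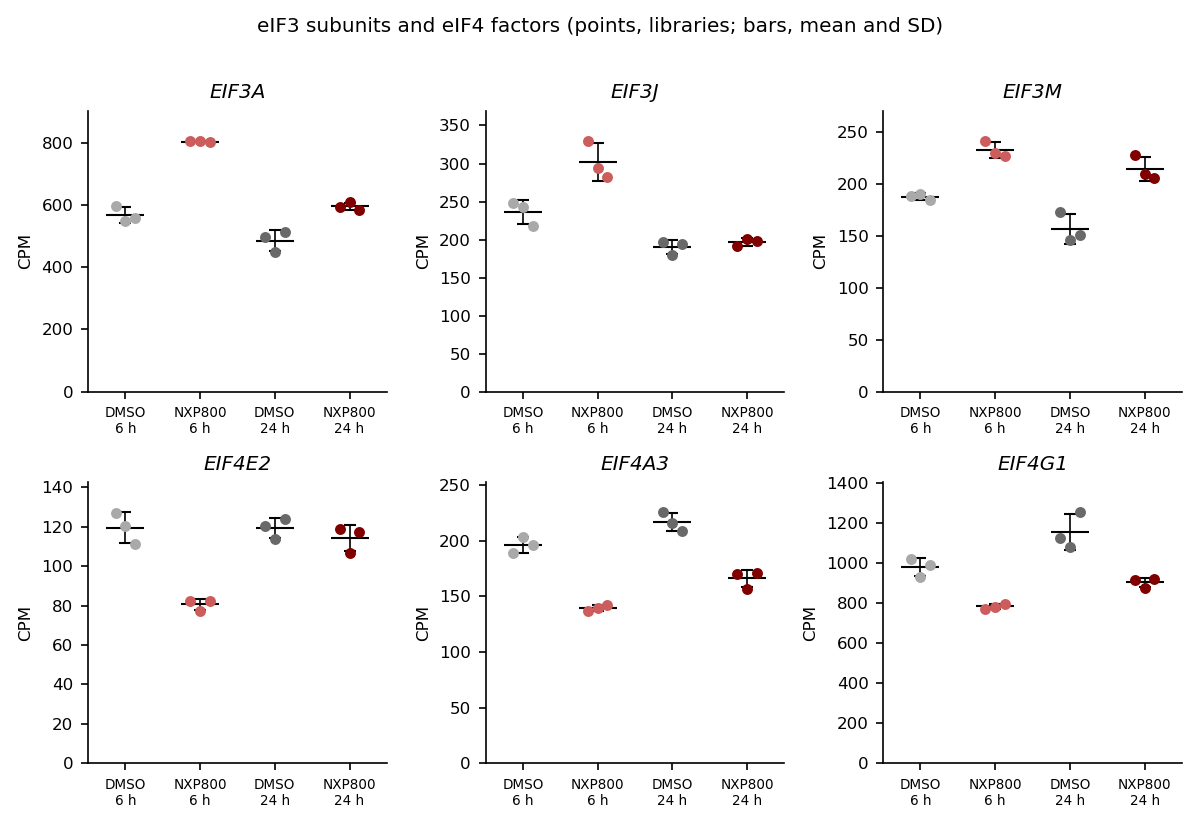
Scaled counts (CPM, linear axes from 0) of 3 eIF3 subunits and 3 eIF4 factors in the 4 groups. Points are the 3 libraries of a group, and bars are the mean and the SD. *EIF3A* and *EIF3M* lie above DMSO at both times and *EIF3J* at 6 h, whereas *EIF4A3* and *EIF4G1* lie below DMSO at both times and *EIF4E2* at 6 h.

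eIF5A, the only protein known to carry the amino acid hypusine, relieves ribosomes that stall during elongation and helps termination. *EIF5A* was among the most abundant of these mRNAs, with 2325, 2043 and 2233 CPM with DMSO and 1971, 1952 and 2045 CPM with NXP800 at 6 h (log2 fold change -0.15, SE 0.091, adjusted p = 0.192), where the groups overlapped. At 24 h it fell, with 2573, 2327 and 2355 CPM with DMSO and 2109, 1637 and 1716 CPM with NXP800 (log2 fold change -0.41, SE 0.091, adjusted p = 0.0011). With the replicate block the value at 6 h was called too (adjusted p = 0.0387), but with GC and length offsets added it was -0.001 (adjusted p = 0.988). Its paralogue *EIF5A2* had log2 fold change -0.044, SE 0.10, adjusted p = 0.743 at 6 h and log2 fold change 0.23, SE 0.11, adjusted p = 0.0885 at 24 h. At 24 h *EIF5A2* was called with the replicate block (adjusted p = 0.0289), with scaling by library size only (0.32, adjusted p = 0.0318) and without NXP800 24 h replicate 3 (0.31, adjusted p = 0.0306). Per kilobase *EIF5A* lay at 1741 ± 114 CPM in the DMSO libraries of 6 h and *EIF5A2* at 2.78 ± 0.246 CPM. The copy *EIF5AL1*, which had 36 to 157 counts per library and may take reads of *EIF5A*, fell at 24 h (log2 fold change -0.51, SE 0.17, adjusted p = 0.0179), a call lost without DMSO 24 h replicate 1 or NXP800 24 h replicate 2 or 3 (-0.47 to -0.39, adjusted p 0.0596 to 0.0964).

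*EIF6* encodes the factor that keeps the large subunit from joining too early and takes part in its assembly. It had 510.1, 466 and 484 CPM with DMSO and 750.3, 668 and 716 CPM with NXP800 at 24 h (log2 fold change 0.55, SE 0.065, adjusted p = 2.65e-06). At 6 h the groups were also apart, with 331, 341 and 328 CPM with DMSO and 398, 363 and 369 CPM with NXP800 (log2 fold change 0.18, SE 0.065, adjusted p = 0.0311), but the call was lost without DMSO 6 h replicate 1 or 3 or NXP800 6 h replicate 1 (0.14 to 0.17, adjusted p 0.0811 to 0.15) and with no filter on low counts (adjusted p = 0.0651). With GC and length offsets added to the replicate block it was 0.32 (adjusted p = 2.05e-06).

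Of the 7 elongation factor genes, 1 fell and 0 rose at 6 h with edgeR, and 2 rose and 1 fell at 24 h. *EEF2* rose at 6 h at an unadjusted p under 0.05, with DESeq2 and with the replicate block. The share called was 14.3% at 6 h and 42.9% at 24 h, against 52.8% and 56% of all tested genes. eEF1A delivers aminoacyl-tRNA to the ribosome, and its 2 genes differ in where they are used, *EEF1A2* being mostly restricted to neurons and muscle in adults. *EEF1A1* was the most abundant transcript of the list, with 13230, 13830 and 11780 CPM with DMSO and 12630, 14840 and 12120 CPM with NXP800 at 6 h (log2 fold change 0.028, SE 0.10, adjusted p = 0.836). At 24 h it had 13560, 14130 and 13990 CPM with DMSO and 17870, 14330 and 16280 CPM with NXP800 (log2 fold change 0.22, SE 0.10, adjusted p = 0.0827), with the treated libraries above the controls, and it was called with the replicate block (adjusted p = 0.0132). *EEF1A2* did not pass the test at 6 h, with 192, 188 and 209 CPM with DMSO and 191, 184 and 214 CPM with NXP800 (log2 fold change 0.002, SE 0.075, adjusted p = 0.982), but was called up there with GC and length offsets added to the replicate block (0.18, adjusted p = 0.00109). At 24 h it had the largest rise of the list, with 293, 277 and 309 CPM with DMSO and 504, 481 and 554 CPM with NXP800 (log2 fold change 0.81, SE 0.075, adjusted p = 1.8e-07). Per kilobase, *EEF1A2* at 24 h went from 165 ± 8.94 CPM with DMSO to 289 ± 21.0 CPM with NXP800, and *EEF1A1* from 3955 ± 84.4 CPM to 4600 ± 505 CPM.

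eEF1B exchanges the nucleotide of eEF1A. *EEF1B2* (α subunit) rose at 24 h, with 591, 579 and 588 CPM with DMSO and 719, 646 and 703 CPM with NXP800 (log2 fold change 0.23, SE 0.071, adjusted p = 0.00988), and was not called at 6 h (log2 fold change 0.095, SE 0.071, adjusted p = 0.274). *EEF1D* (δ subunit) fell, with 627, 620.1 and 613 CPM with DMSO and 527, 468 and 479 CPM with NXP800 at 24 h (log2 fold change -0.34, SE 0.071, adjusted p = 0.000758) and 441, 419 and 447 CPM with DMSO and 379, 344 and 412 CPM with NXP800 at 6 h (log2 fold change -0.20, SE 0.071, adjusted p = 0.0235). The call at 6 h was lost without DMSO 6 h replicate 1 or 3 or NXP800 6 h replicate 1 or 2 (-0.21 to -0.14, adjusted p 0.0591 to 0.144), and with GC and length offsets added to the replicate block the value at 6 h was -0.022 (adjusted p = 0.695) and that at 24 h -0.22 (adjusted p = 0.000307). *EEF1G*, the γ subunit, was not called (-0.032 at 6 h and 0.066 at 24 h), nor was *EEF1E1*, a component of the multisynthetase complex (-0.017 and 0.16).

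*EEF2*, the translocation factor, had 2746, 2777 and 2779 CPM with DMSO and 3143, 3212 and 3052 CPM with NXP800 at 6 h (log2 fold change 0.18, SE 0.076, adjusted p = 0.0583). The treated libraries lay above the controls, and the replicate block called the rise (adjusted p = 0.0136). At 24 h the libraries overlapped, with 4713, 4679 and 4806 CPM with DMSO and 4854, 4002 and 4491 CPM with NXP800 (log2 fold change -0.089, SE 0.076, adjusted p = 0.337). *EEF2KMT* was called down at 24 h (log2 fold change -0.30, SE 0.083, adjusted p = 0.00634), but not without NXP800 24 h replicate 2 (-0.22, adjusted p = 0.0559).

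**Figure D4:**
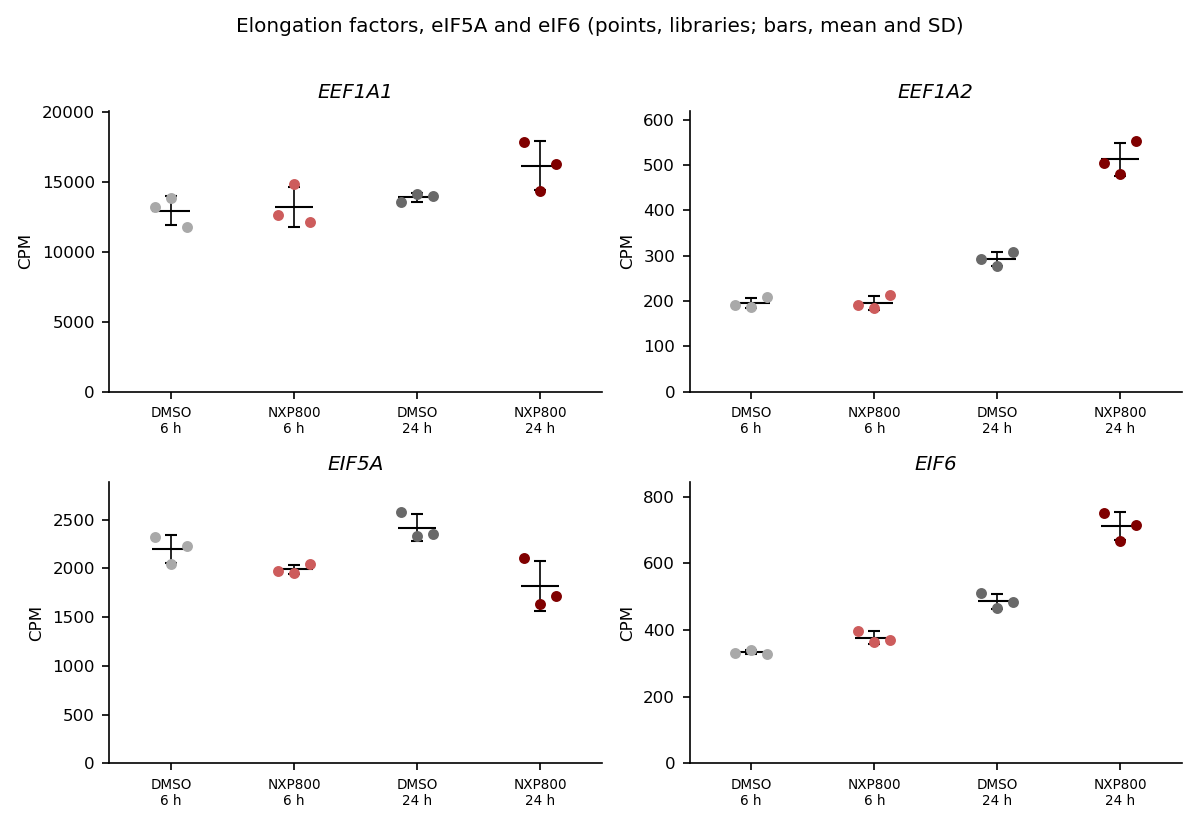
Scaled counts (CPM, linear axes from 0) of *EEF1A1*, *EEF1A2*, *EIF5A* and *EIF6* in the 4 groups. Points are the 3 libraries of a group, and bars are the mean and the SD. *EEF1A2* and *EIF6* stand above DMSO at 24 h and *EIF5A* below it.

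The response differed between the time points, by the test of the difference itself, for 11 of the 54 tested factors (20.4%), where 25.8% of all tested genes did so. It was higher at 24 h for 5 and lower for 6, against 12% and 13.8% of all genes. The rises of *EIF1* (difference -0.35, adjusted p = 0.0099), *EIF1B* (-0.37, 0.013), *EIF2S2* (-0.36, 0.0131) and *EIF5* (-0.45, 0.0294) were smaller at 24 h than at 6 h. Those of *EIF3J* (-0.31, 0.033) and *EIF2B2* (-0.42, 0.0179) were called at 6 h and not at 24 h. In the other direction stood *EEF1A2* (0.81, 5.27e-05), *EIF4E2* (0.50, 0.000961), *EIF2B4* (0.46, 0.0332), *EIF6* (0.37, 0.00741) and *EIF4ENIF1* (0.31, 0.0219).

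Of these 11 differences, 6 (*EEF1A2*, *EIF1*, *EIF1B*, *EIF2S2*, *EIF4E2* and *EIF6*) held in each alternative at the same threshold and with each library left out. That of *EIF2B2* was lost without NXP800 6 h replicate 1 (-0.35, adjusted p = 0.0566), and that of *EIF4ENIF1* without DMSO 6 h replicate 1 or NXP800 6 h replicate 1 or 2 (0.29 to 0.30). *EIF2B4* lost it on leaving out any 1 of 7 libraries (DMSO 6 h replicates 2 and 3, NXP800 6 h replicates 2 and 3, DMSO 24 h replicates 1 and 2 and NXP800 24 h replicate 3; 0.30 to 0.45). *EIF5* lost it without DMSO 6 h replicate 2 or 3, NXP800 6 h replicate 1 or 2, DMSO 24 h replicate 1 or 2 or NXP800 24 h replicate 3 (-0.44 to -0.32), and *EIF3J* without DMSO 6 h replicate 3, NXP800 6 h replicate 1, DMSO 24 h replicate 1 or 3 or NXP800 24 h replicate 1 or 3 (-0.31 to -0.24). Scaling by library size only also lost the differences of *EIF3J* (-0.23, adjusted p = 0.0888) and *EIF5* (-0.38, adjusted p = 0.0654). That of *EIF4ENIF1* was lost with no filter on low counts (0.33, adjusted p = 0.0808). With the replicate block, 7 responses were higher and 14 lower at 24 h. The added calls were *EIF3D* and *EIF4E3* upwards and *EEF2*, *EEF2KMT*, *EIF2A*, *EIF2B3*, *EIF2B5*, *EIF3A*, *EIF4G2* and *EIF5A* downwards. The libraries of the 2 times also differed in the share of reads on no annotated gene (between 6.66 and 8.14% at 6 h, and between 2.73 and 3.67% at 24 h). The part of this share in the differences was not tested.

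**Figure D5:**
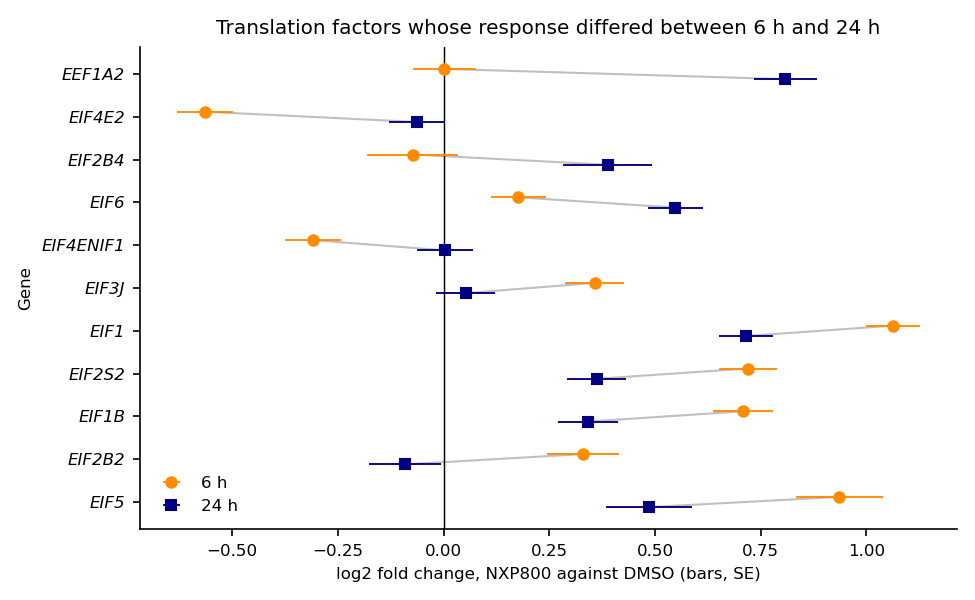
log2 fold change of NXP800 against DMSO at 6 h (orange circles) and 24 h (blue squares) for the 11 genes whose response differed between the times. Bars are standard errors. *EIF1*, *EIF1B*, *EIF2S2* and *EIF5* are nearer to 0 at 24 h but still above it, and *EEF1A2* moves from 0.002 to 0.81.

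mRNAs of many translation factors start with a C followed by a run of C and T, the 5′ terminal oligopyrimidine tract through which mTOR signalling controls their translation. RefSeq start sites (GRCh38.p14) were given for 47 of the 57 genes. With a tract defined as a C at an annotated start followed by 5 bases that are each C or T, 12 of the 47 (25.5%) held one, against 3.83% of the 27305 genes with a start site in the same reference. This search was chosen after the values of the genes had been seen. The starts below, chosen with those values known, are examples of genes with a tract among the elongation factors, eIF3 and eIF2, and of 3 genes without one. *EIF5*, *EEF1G* and *EEF1E1*, whose starts are not printed, held no tract either. Each line holds 10 bases before the start and 16 from it, 5′ to 3′ on the strand of the gene, and capitals mark the tract.
EEF1A1, chr6:73521017-73521042, minus strand: cgtgaacgttCTTTTTcgcaacgggt
EEF2, chr19:3985448-3985473, minus strand: cgtcagcgttCTCTTCcgccgtcgtc
EEF1B2, chr2:206159885-206159910, plus strand: ctcttcgggtCCTTTTtcctctcttc
EIF3D, chr22:36529151-36529176, minus strand: cgcatgtttcCTCTTTtcctggtttc
EIF3M, chr11:32583821-32583846, plus strand: gcccagttccCTTTTCcggtcggcgt
EIF2S3, chrX:24054946-24054971, plus strand: gatttccttcCTCTTTtggcaacatg
EIF1, chr17:41688875-41688900, plus strand: ccgcccctctgccccagtcactgagc
EIF1B, chr3:40309697-40309722, plus strand: cattttgtgcgagaagccgcagcgcc
EIF2S1, chr14:67360318-67360343, plus strand: gaggttccgcatgcgcggtggagtga

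The first 6 starts hold the tract, although *EEF1B2* has another annotated start without it, and those of *EIF1*, *EIF1B* and *EIF2S1* do not. *EIF2A*, *EIF2D*, *EIF2S3B*, *EIF3F*, *EIF3K* and *EIF4A2* were the other genes with a tract. The mRNA levels of the 12 genes did not share a direction. At 6 h 2 rose and 1 fell, around a median of 0.010 (log2), and at 24 h 3 rose and 3 fell, around a median of -0.092. Among the 32 tested genes with another start, 7 rose and 7 fell at 6 h (median -0.027), and 7 rose and 11 fell at 24 h (median -0.010). *EIF3M* and *EIF3D*, with a tract, rose at both times, and *EIF2S3*, with a tract, fell at both. Annotated starts are not starts measured in these cells.

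The letters TGATGNAA, which the stress factors ATF4 and CHOP can bind, were looked for on both strands of the RefSeq windows from 250 bases before to 50 bases after the start. They occurred in 1 of the 47 genes (2.13%), *EIF4E3*, against 4.46% of all 27305 genes. In the 4-group fit without a block, no called translation factor with a window held them, which says nothing about binding elsewhere. *EIF4E3* was not called there, but was called up at 24 h with the replicate block (0.42, adjusted p = 0.00536).

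The genes around these factors were described with 5 lists. Of all tested genes, 52.8% were called at 6 h and 56% at 24 h. The share called was 88.9% and 100% for the kinases and phosphatase subunits, and 60% at each time for the regulators. It was 37.5% and 62.5% for termination, recycling and reinitiation. For the modifying enzymes it was 30.8% and 69.2%, and for the mitochondrial factors 44.4% and 55.6%. Among 9 genes for kinases and phosphatase subunits of eIF2α, 3 rose and 5 fell at 6 h, and 5 rose and 4 fell at 24 h. *PPP1R15A*, the inducible subunit that directs the phosphatase to eIF2α, rose most (log2 fold change 2.54, SE 0.14, adjusted p = 6.39e-10 at 6 h and log2 fold change 2.22, SE 0.14, adjusted p = 1.77e-09 at 24 h). *PPP1R15B*, its constitutive relative, rose at both times (log2 fold change 0.66, SE 0.079, adjusted p = 4.22e-06 and log2 fold change 0.31, SE 0.080, adjusted p = 0.0035), *EIF2AK4*, which encodes GCN2, fell at both times (log2 fold change -0.62, SE 0.061, adjusted p = 4.31e-07 and log2 fold change -0.48, SE 0.061, adjusted p = 5.21e-06), and *PPP1CC*, a catalytic subunit gene, fell at both (log2 fold change -0.45, SE 0.059, adjusted p = 1.02e-05 and log2 fold change -0.60, SE 0.060, adjusted p = 3.94e-07). The catalytic subunit genes did not share a direction. *PPP1CA* also fell at both times (-0.28, adjusted p = 0.00487, and -0.36, adjusted p = 0.000572), and *PPP1CB* rose at both (0.32, adjusted p = 0.000299, and 0.45, adjusted p = 9.47e-06). The kinase genes did not share a direction either. *EIF2AK1* also fell at both times (-0.35, adjusted p = 0.000217, and -0.33, adjusted p = 0.000303). *EIF2AK2* fell at 6 h (-0.375, adjusted p = 0.000259) and rose at 24 h (0.428, adjusted p = 6.12e-05). *EIF2AK3* was not called at 6 h (-0.038, adjusted p = 0.739) and rose at 24 h (0.408, adjusted p = 0.000816). The rise of *PPP1R15A* was larger than any value among the translation factors themselves.

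Of 15 tested regulators of eIF4F and eEF2, 3 rose and 6 fell at 6 h, and 4 rose and 5 fell at 24 h. With the replicate block 3 rose and 8 fell at 6 h, and 5 rose and 7 fell at 24 h, the added calls being *LARP1* and *PABPC1* downwards at 6 h, *MKNK1* upwards at 24 h and *PABPC1* and *PAIP2* downwards at 24 h. *PDCD4*, an inhibitor of eIF4A, rose (log2 fold change 1.59, SE 0.089, adjusted p = 9.78e-10 and log2 fold change 0.95, SE 0.091, adjusted p = 2.66e-07), as did *EIF4EBP1*, an inhibitor of eIF4E (log2 fold change 0.73, SE 0.092, adjusted p = 6.29e-06 and log2 fold change 0.72, SE 0.092, adjusted p = 5.8e-06). Its paralogue *EIF4EBP2* went the other way and fell at both times (log2 fold change -0.66, SE 0.062, adjusted p = 2.64e-07 and log2 fold change -0.42, SE 0.062, adjusted p = 2.55e-05). *RPS6KA1*, a kinase of the MAPK pathway, fell at both times (log2 fold change -1.20, SE 0.10, adjusted p = 9e-08 and log2 fold change -0.98, SE 0.098, adjusted p = 4.03e-07), and *EEF2K*, the kinase that inhibits eEF2, fell at 6 h (log2 fold change -0.99, SE 0.093, adjusted p = 2.52e-07) and, by less, at 24 h (log2 fold change -0.27, SE 0.090, adjusted p = 0.0169; difference 0.72, adjusted p = 0.00073). With scaling by library size only, the call of *EEF2K* at 24 h was lost (-0.18, adjusted p = 0.127), as was the fall of *MTOR* (-0.148, adjusted p = 0.0624). Of 8 genes of termination, recycling and reinitiation, 3 rose and 0 fell at 6 h with edgeR (0 also at an unadjusted p under 0.05 and with DESeq2). With GC and length offsets added to the replicate block, 3 fell at 6 h. They were *HBS1L* (-0.25, adjusted p = 0.000118), *MCTS1* (-0.12, adjusted p = 0.029) and *ABCE1* (-0.11, adjusted p = 0.0214). The rises at 6 h were those of the release factor genes *GSPT2* (log2 fold change 0.88, SE 0.092, adjusted p = 9.49e-07) and *ETF1* (log2 fold change 0.31, SE 0.072, adjusted p = 0.0018) and of *DENR* (log2 fold change 0.25, SE 0.057, adjusted p = 0.00159), which acts in reinitiation. *DENR* also rose at 24 h (log2 fold change 0.14, SE 0.057, adjusted p = 0.0471). At 24 h 4 rose, *GSPT2* (log2 fold change 0.71, SE 0.094, adjusted p = 8.53e-06) and *PELO* (log2 fold change 0.19, SE 0.067, adjusted p = 0.0238), which rescues stalled ribosomes, among them, and the release factor gene *GSPT1* fell (log2 fold change -0.29, SE 0.057, adjusted p = 0.000385). *MCTS1* was also among the 4 (log2 fold change 0.17, SE 0.070, adjusted p = 0.0467), although its groups overlapped. Its rise was lost with GC and length offsets added to the replicate block (0.074, adjusted p = 0.183), and DESeq2 called 3 rises at 24 h. The replicate block added the rise of *ABCE1* at 24 h (adjusted p = 0.0183).

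Of 13 enzymes that modify eIF5A, eEF1A and eEF2, 2 rose and 2 fell at 6 h, and 5 rose and 4 fell at 24 h. Scaling by library size only lost the falls of *DHPS*, *DOHH* and *DPH1* at 24 h (adjusted p = 0.116, 0.13 and 0.0558). Those of *DHPS* and *DOHH* were also lost with GC and length offsets added to the replicate block (adjusted p = 0.0982 and 0.148). At 6 h *EEF1AKMT1*, an eEF1A methyltransferase gene, fell (log2 fold change -0.30, SE 0.11, adjusted p = 0.0318) and *DPH2*, of diphthamide synthesis, rose (log2 fold change 0.25, SE 0.068, adjusted p = 0.00522). The largest rises at 24 h were those of the eEF1A methyltransferases *EEF1AKMT3* (log2 fold change 0.66, SE 0.14, adjusted p = 0.000695) and *EEF1AKMT4* (log2 fold change 0.65, SE 0.17, adjusted p = 0.00432), and *DPH7*, of the same pathway on eEF2, fell at both times (log2 fold change -0.41, SE 0.10, adjusted p = 0.00313 and log2 fold change -0.46, SE 0.10, adjusted p = 0.00118). Of 9 mitochondrial translation factors, 2 rose and 2 fell at 6 h, and 2 rose and 3 fell at 24 h. At 6 h *TSFM* fell (log2 fold change -0.49, SE 0.066, adjusted p = 1.15e-05), and the release factor gene *MTRF1L* (log2 fold change 0.35, SE 0.069, adjusted p = 0.000543) and *MTIF2* (log2 fold change 0.28, SE 0.062, adjusted p = 0.00142) rose. *MTRF1L* rose at 24 h as well (log2 fold change 0.18, SE 0.071, adjusted p = 0.04). The elongation factor genes *TUFM* (log2 fold change -0.55, SE 0.065, adjusted p = 2.51e-06) and *TSFM* (log2 fold change -0.56, SE 0.066, adjusted p = 2.56e-06) fell at 24 h, whereas the initiation factor gene *MTIF2* rose (log2 fold change 0.58, SE 0.063, adjusted p = 9.2e-07). *TUFM* was also called down at 6 h (log2 fold change -0.22, SE 0.065, adjusted p = 0.00913), but not with GC and length offsets added to the replicate block (-0.057, adjusted p = 0.256). The replicate block alone added *MRRF*, upwards at 6 h and downwards at 24 h (adjusted p = 0.0155 and 0.013), and, among the modifying enzymes, *DPH2* downwards at 24 h (adjusted p = 0.0286).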

How the data were processed

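The 12 mRNA libraries were grouped by the treatment, time and replicate number of their labels, and the dose came from the study's methods. Per the labels, the authors trimmed reads with fastp 0.20.1, aligned to hg38 with STAR 2.7.5a and counted over the RefSeq genes of GRCh38.p14 with HTSeq 0.12.4. The deposited values are raw counts without normalization. Per the labels the library kit was strand-specific. The strand setting and mode of the counting are not given in the sources used here. Entries naming no gene (no feature, 2.73 to 8.14% of a library, ambiguous, 2.10 to 2.43%, not unique, 1.86 to 3.37%) stayed out of totals and tests.

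The fit used edgeR 4.0.16 and limma 3.58.1 under R 4.3.3, with TMM scaling, filterByExpr, and the quasi-likelihood test in 1 model of 4 groups without a block. The common dispersion was 0.00723. Levels are TMM-scaled CPM. SE is the absolute log2 fold change over the square root of F. At this depth the spread between libraries sets the precision, counting error mattering only for low genes. Libraries of a group differed by more than sampling noise (chi-square per degree of freedom 7.36 to 26.4), so none was a duplicate.

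Members and lists were chosen with earlier results of these data known. Named genes were, per complex, the 3 called members with the largest absolute log2 fold change at each time, the 2 largest differences of responses, *EIF2S1*, paralogue pairs, and in each related list the 3 largest called changes. The other members were given by shorter values. The search for tracts at start sites, and levels of other genes in full, were added after values were seen. Alternatives were DESeq2 1.42.0 (size factors, Wald test), library size only, 2 other filters (none, and 10 counts in every library), the libraries of a time point, a threshold of 0.01, each library left out, and the replicate number as a block, alone and with GC and length offsets (known for 91.6% of tested genes). Libraries of equal replicate number went together. Once group means were removed, r across genes between an NXP800 and a DMSO library ran from 0.159 to 0.329 for equal numbers. For unequal numbers it ran from -0.268 to 0.058. Deviations from a group mean cancel within the group, so low values for unequal numbers follow in part from the equal ones. Genes are not independent replicates. The pairing comes from the replicate numbers of the labels. In data simulated with 200 genes changed 2-fold, edgeR recovered 200 at 6 h with 14 other calls among 15599 genes, 200 at 24 h with 12, and 188 differences of responses with 9, the latter 2 among 15605 genes. The simulated counts shared the common dispersion and had no pairing. Changes under 2-fold, as for nearly all factors here, were not simulated, so their recovery is not known from it. Protein sequences were not used here.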

Additional observations from a re-analysis of the deposited data

Results flagged for a closer look

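The response to NXP800 differed between 24 h and 6 h for 11 translation factors, by edgeR's test of the difference of the responses across all 12 libraries (adjusted p below 0.05 over all tested genes, where 25.8% of genes passed). The values are the log2 fold change at 24 h minus that at 6 h. The difference was 0.81 for *EEF1A2*, 0.50 for *EIF4E2*, 0.46 for *EIF2B4*, 0.37 for *EIF6* and 0.31 for *EIF4ENIF1*. It was -0.45 for *EIF5*, -0.42 for *EIF2B2*, -0.37 for *EIF1B*, -0.36 for *EIF2S2*, -0.35 for *EIF1* and -0.31 for *EIF3J*. The libraries of each time form a set of their own, so the time and the set cannot be told apart.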

How the results depend on the processing

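Of the calls, 15 of 20 at 6 h, 20 of 29 at 24 h and 6 of 11 differences of responses held under each alternative at the same threshold and with each library left out. Scaling by library size only gave 21 rises and 10 falls at 24 h in place of 13 and 16, and moved the median of all genes at 24 h from -0.0033 to 0.0859. An adjusted p below 0.01 left 9 falls at 24 h and 3 higher and 1 lower responses. The replicate block gave 14 lower responses in place of 6, and with GC and length offsets the same block gave 17 rises at 6 h and 9 higher and 17 lower responses. The block alone ended no call among the translation factors or the related genes. It added 5 at 6 h and 6 at 24 h among the former, 3 and 6 among the latter, and 7 differences of responses among the latter. Over all 15979 tested genes the block called 9953 at 6 h, 10411 at 24 h and 6284 differences, in place of 8435, 8953 and 4129. With the offsets, 12 and 10 calls of translation factors were added and 2 at 6 h were lost, and 6 called values at 6 h and 2 at 24 h moved by over 1.5 times. The added calls not given with their genes were *EIF3CL* upwards and *EIF3F*, *EIF4E*, *EIF4G3* and *EIF5A2* downwards at 6 h, and *EEF1G* upwards and *EIF4B* downwards at 24 h. Leaving out 1 library at a time gave 9 to 14 rises and 6 to 10 falls at 6 h, 12 to 18 rises and 9 to 16 falls at 24 h, and 3 to 5 higher and 3 to 9 lower responses. The lowest counts came without NXP800 24 h replicate 2 (9 falls at 24 h), NXP800 6 h replicate 2 (3 higher) and NXP800 6 h replicate 1 (3 lower). The cause of these shifts was not tested.

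Among the named genes, signs turned under these alternatives only for values that were not called. With the replicate block and offsets, the log2 fold change at 6 h was -0.024 for *EEF1A1*, 0.030 for *EIF2B4* and -0.005 for *EIF4G2*, and that at 24 h was -0.020 for *EIF4G3*. For *EIF4A2* at 6 h it was 0.008 with DESeq2's size factors, 0.010 with library size only and with DESeq2's test, 0.025 with the libraries of the time point and 0.001 with the replicate block. With library size only it was 0.026 at 24 h for *EIF4A2* and for *EIF4E2*, and with the libraries of the time point 0.011 for *EIF2B3* at 6 h. Leaving out 1 library gave -0.063 to 0.087 for *EEF1A1*, -0.062 to 0.051 for *EEF1A2*, -0.092 to 0.044 for *EIF2B3*, -0.095 to 0.10 for *EIF4A2*, -0.24 to 0.11 for *EIF4E3* and -0.090 to 0.031 for *EIF5A2* at 6 h, and -0.15 to 0.027 for *EIF4A2*, -0.099 to 0.010 for *EIF4E2* and -0.035 to 0.10 for *EIF4G3* at 24 h.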
